A study of Homo sapiens with 8 samples.

Results

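Aminoacyl-tRNA synthetases were followed at the transcript level in U2OS cells, an established human osteosarcoma line, under expression of an actin mutant and under serum. The members were taken as the rows of the deposited expression table whose symbol was that of a listed synthetase, in the older nomenclature (AARS, CARS and so on). This gave 36 of the 22504 genes in the table, 20 that act in the cytosol and 16 that act in mitochondria, whose symbols end in 2. The groups were cells overexpressing the actin mutant G13R with serum, G13R cells in normal growth, GFP-expressing cells with serum and GFP cells in normal growth, with 2 libraries each and 8 in all. The labels do not say which actin gene carries the mutation, whether the lines were clones or pools, how long serum was given or whether it was withdrawn beforehand. They also do not say that the libraries of a group came from separate cultures, so every p-value here rests on how far the libraries of a group differ, and that difference may be technical.

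Each synthetase joins its amino acid to the matching tRNAs, and the charged tRNA then carries that amino acid to the ribosome. In human cells the cytosol and the mitochondria have separate sets of these enzymes, all encoded in the nucleus. GARS (glycine) and KARS (lysine) each encode both forms from a single gene, and EPRS fuses the glutamate and proline enzymes in one protein. Glutamine is an exception in mitochondria: EARS2 charges the glutamine tRNA with glutamate, and an amidotransferase then converts it. Many cytosolic synthetase genes are known targets of ATF4, the transcription factor of the amino acid and stress response, which binds C/EBP-ATF response elements.

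That element is shown first, because its letters were found in a greater share of cytosolic than of mitochondrial promoters. RefSeq promoter windows of build GRCh38.p14, from 250 bases before to 50 after a transcription start, were available for 30 of the 36 members, 16 cytosolic and 14 mitochondrial. AARS2, DARS, LARS, VARS, VARS2 and YARS had no window. The letters TGATGNAA, searched on both strands, stood in the windows of 7 of the 16 cytosolic members, or 43.8%. They stood in 1 of the 14 mitochondrial members, or 7.14%, and in 4.46% of the 27305 genes with a window. The stretches of 41 bases around each match follow in the direction of the gene, 5′ to 3′, with the matched letters in capitals.
AARS (chr16:70289669-70289709, minus strand): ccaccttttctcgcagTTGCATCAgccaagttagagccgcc
CARS (chr11:3057401-3057441, minus strand): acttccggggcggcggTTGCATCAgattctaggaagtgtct
GARS (chr7:30594829-30594869, plus strand): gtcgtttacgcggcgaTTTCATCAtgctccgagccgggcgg
IARS (chr9:92293686-92293726, minus strand): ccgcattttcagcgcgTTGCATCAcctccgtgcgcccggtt
MARS (chr12:57488048-57488088, plus strand): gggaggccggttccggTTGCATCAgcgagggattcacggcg
NARS (chr18:57621798-57621838, minus strand): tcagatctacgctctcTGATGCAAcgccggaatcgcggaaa
TARS (chr5:33440951-33440991, plus strand): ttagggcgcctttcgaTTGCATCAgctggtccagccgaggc
YARS2 (chr12:32756070-32756110, minus strand): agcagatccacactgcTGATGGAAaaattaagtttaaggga

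Counted from the first transcribed base as 0, the matches of CARS, IARS, MARS, NARS and TARS began between -13 and 14. That of GARS began at -33, that of AARS at -187 and that of YARS2 at -197. The central octamer was identical in AARS, CARS, IARS, MARS and TARS, NARS carried its reverse complement, and GARS and YARS2 each differed from it at the base the motif leaves free. These are matches of letters and not measured binding sites.

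Further letters were searched for motifs of other factors: GCGCATGC, the core of the NRF1 motif of respiratory genes, and CACGTG, the E-box. The NRF1 letters stood in the windows of 0 cytosolic and 2 mitochondrial members, MARS2 and YARS2, which is 14.3% of the mitochondrial windows against 3.68% of genes with a window. The E-box stood in 1 cytosolic member, IARS, and in 3 mitochondrial members, CARS2, EARS2 and MARS2, or 21.4% against 8.77% of genes. MARS2, the mitochondrial methionine enzyme and the single mitochondrial member called in both lines below, held both. Its window is given with these letters in capitals; the NRF1 letters occur on both strands there and overlap. QARS, the glutamine enzyme and the single member called higher below, held none of the 3 motifs. Neither did FARSA, FARSB, KARS and RARS, which were called lower in GFP cells below. The QARS window is given for comparison.
MARS2 (chr2:197705119-197705418, plus strand): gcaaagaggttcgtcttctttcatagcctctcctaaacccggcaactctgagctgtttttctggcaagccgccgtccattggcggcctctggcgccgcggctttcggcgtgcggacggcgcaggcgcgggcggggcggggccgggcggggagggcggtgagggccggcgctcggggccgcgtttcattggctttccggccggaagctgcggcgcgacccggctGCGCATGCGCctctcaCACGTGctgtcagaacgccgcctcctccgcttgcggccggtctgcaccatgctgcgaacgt
QARS (chr3:49104708-49105007, minus strand): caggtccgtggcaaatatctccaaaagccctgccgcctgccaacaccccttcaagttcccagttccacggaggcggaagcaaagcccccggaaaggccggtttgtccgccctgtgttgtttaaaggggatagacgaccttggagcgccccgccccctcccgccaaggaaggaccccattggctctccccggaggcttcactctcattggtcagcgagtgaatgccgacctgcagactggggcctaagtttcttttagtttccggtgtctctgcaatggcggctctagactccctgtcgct

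The libraries were alike in breadth, with 12065 to 12568 genes at 1 FPKM or more (fragments scaled to transcript length and to the mapped fragments of the library). Read counts are not part of the table, and sequencing depth is therefore unknown. Of 9 markers of the osteoblast lineage, 6 reached 1 FPKM in every library, while COL1A2 and IBSP were below it in every library. The 4 endothelial markers and 4 of 5 leukocyte markers were below 1 FPKM in every library, as were ESRP1 and KRT19 of the 5 epithelial markers. The summed level of the epithelial markers was 13.2 and 13.9 FPKM in G13R cells with serum and 6.82 and 9.56 in normal growth, and 14.5 and 16 in GFP cells with serum against 6.70 and 9.38 in normal growth. The summed level of the 5 neural markers was 16.8 and 19.9 FPKM in G13R cells with serum and 12 and 14.1 in normal growth, and 20.4 and 21.7 in GFP cells with serum against 14.4 and 17.6 in normal growth. The epithelial sum was higher through CLDN4, which measured 9.18 and 10.9 FPKM in G13R cells with serum against 2.96 and 2.87 in normal growth, and 12.1 and 11.1 in GFP cells with serum against 2.29 and 2.32, while CDH1 had log2 fold changes of -0.84 and -1.09 that were not called. The summed leukocyte markers, nearly all CD68, were 12 and 13.4 FPKM in G13R cells with serum and 10.4 and 10.9 in normal growth, and 11.9 and 13.3 in GFP cells with serum against 10.1 and 11.7. The osteoblast sums, mostly SPARC, were 550.0 and 598 FPKM in G13R cells with serum and 477 and 519 in normal growth, and 698 and 853 in GFP cells with serum against 607 and 694. These 4 sums were higher with serum in both lines without overlap, and their part in the results was not tested.

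All 36 members passed the filter on low values, at least 1 FPKM in at least 2 libraries. Cytosolic synthetase transcripts were several times more abundant than mitochondrial ones. The mean level over the 8 libraries ran from 33.8 FPKM for HARS (histidine) to 186 FPKM for SARS (serine) among cytosolic members. Among mitochondrial members it ran from 3.44 FPKM for PARS2 (proline) to 35.5 FPKM for IARS2 (isoleucine). The classes overlapped there: IARS2, at 33.7 to 40.9 FPKM per library, lay across parts of the ranges of FARSA, FARSB, HARS, LARS and WARS, and the highest libraries of CARS2, VARS2 and YARS2 were above the lowest of FARSB. The summed level of the cytosolic members was 7.98 to 9.19 times that of the mitochondrial members in each library, and the highest and the lowest ratio were in different groups.

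At the top of the cytosolic order, SARS (164 to 207 FPKM over the libraries), TARS (153 to 202), GARS (147 to 214) and KARS (126 to 204) had overlapping ranges. These ranges pool serum and normal growth. Library by library, SARS was above TARS and KARS in each, while the other pairs changed order between libraries and are not ranked. TARS charges tRNA with threonine. At the bottom, HARS (24.8 to 38.4 FPKM) and FARSB (22.6 to 46.2), the beta subunit of the phenylalanine enzyme, also overlapped. In bulk RNA, fewer cells of a kind and less RNA per cell cannot be told apart.

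**Figure D1:**
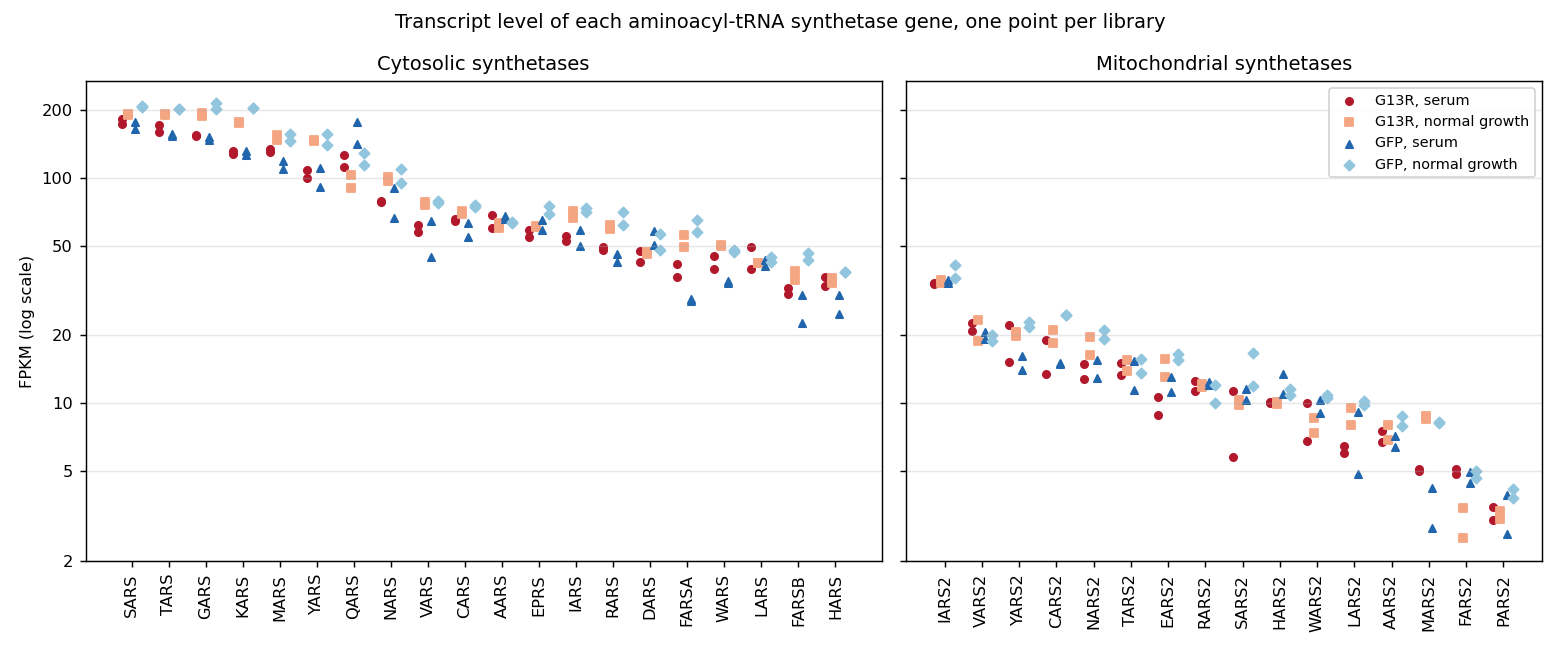
FPKM of each synthetase gene on a log axis, with 1 point per library and genes ordered by mean level within the cytosolic (left) and mitochondrial (right) class. The cytosolic means run from 33.8 to 186 FPKM and the mitochondrial means from 3.44 to 35.5 FPKM, and serum libraries lie low for many cytosolic genes.

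Serum was the comparison in which the synthetases moved. As a class, the cytosolic transcripts summed to 1640 ± 24.0 FPKM in G13R cells with serum, against 1898 ± 27.6 FPKM in G13R cells in normal growth. In GFP cells the sums were 1607 ± 73.5 FPKM with serum and 2052 ± 2.83 FPKM in normal growth (SD, n = 2 per group). The mitochondrial transcripts summed to 194.6 ± 10.2 FPKM with serum and 214.2 ± 13.9 FPKM in normal growth in G13R cells. In GFP cells they summed to 195.2 ± 0.566 FPKM with serum and 238.9 ± 1.56 FPKM in normal growth. Within each line the class sums of the serum libraries were below those of the normal-growth libraries in these means. The 2 GFP libraries with serum differed most from each other in the cytosolic sum, so calls that depend on either are named.

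Genes were tested with limma on log2(FPKM + 1), with p-values adjusted over all 12996 genes tested and calls at an adjusted p under 0.05. In GFP cells, 15 of the 20 cytosolic members fell after serum and 1, QARS, rose. Over all genes 15.7% were called lower and 14.9% higher in that comparison. Cytosolic members had a median log2 fold change of -0.41 (range -1.07 to 0.38), against a median of 0.01 over all genes tested. Of the 16 mitochondrial members, 4 fell and 0 rose, with a median of -0.25 (range -1.05 to 0.14). The cytosolic calls numbered 9 when GFP normal replicate 1 was left out, 10 when replicate 2 of that group was, and 9 when GFP serum replicate 2 was, while 8.78%, 9.67% and 10.8% of all genes were then called lower. The mitochondrial calls numbered 2 without either GFP normal library.

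In G13R cells, 5 cytosolic members fell after serum and 0 rose, while over all genes 4.62% were called lower and 8.26% higher. Their median log2 fold change was -0.21 (range -0.49 to 0.30), against 0.04 over all genes tested, and 17 of 20 lay below 0. Of the mitochondrial members 2 fell and 0 rose, with a median of -0.04 (range -0.67 to 0.60). The cytosolic count was smaller without any 1 of the G13R libraries, when fewer of all genes were called lower too. It was 8 without either GFP serum library, when 7.23% and 7.3% of all genes were called lower, without replicate 1 and replicate 2 in turn. The mitochondrial calls were lost without any 1 of the G13R libraries or of the GFP normal libraries. Fewer of all genes were called lower in those fits as well.

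Cytosolic synthetases are abundant transcripts, and genes of their level were called lower more often than genes as a whole. Among the 2594 genes with a mean level in the cytosolic members' range, 33.8 to 186 FPKM, 35.4% fell and 12.1% rose in GFP cells, with a median log2 fold change of -0.17. In G13R cells 11.3% of those genes fell and 9.79% rose, with a median of -0.06. Among the 7364 genes in the range of the mitochondrial members, 13% fell and 16.8% rose in GFP cells. In G13R cells 2.92% of these fell and 9.6% rose.

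Under quantile normalization the order of the classes in GFP cells turned round, with median log2 fold changes of -0.27 for cytosolic and -0.39 for mitochondrial members. The cytosolic calls in GFP cells then numbered 10 lower and 1 higher and the mitochondrial calls 4 lower. Over all genes 14.8% were called lower and 13.3% higher under that setting. Among genes in the cytosolic members' range of level 23.4% were lower and 18% higher, and in the mitochondrial range 14.4% and 13.8%. No order between the classes is therefore given.

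**Figure D2:**
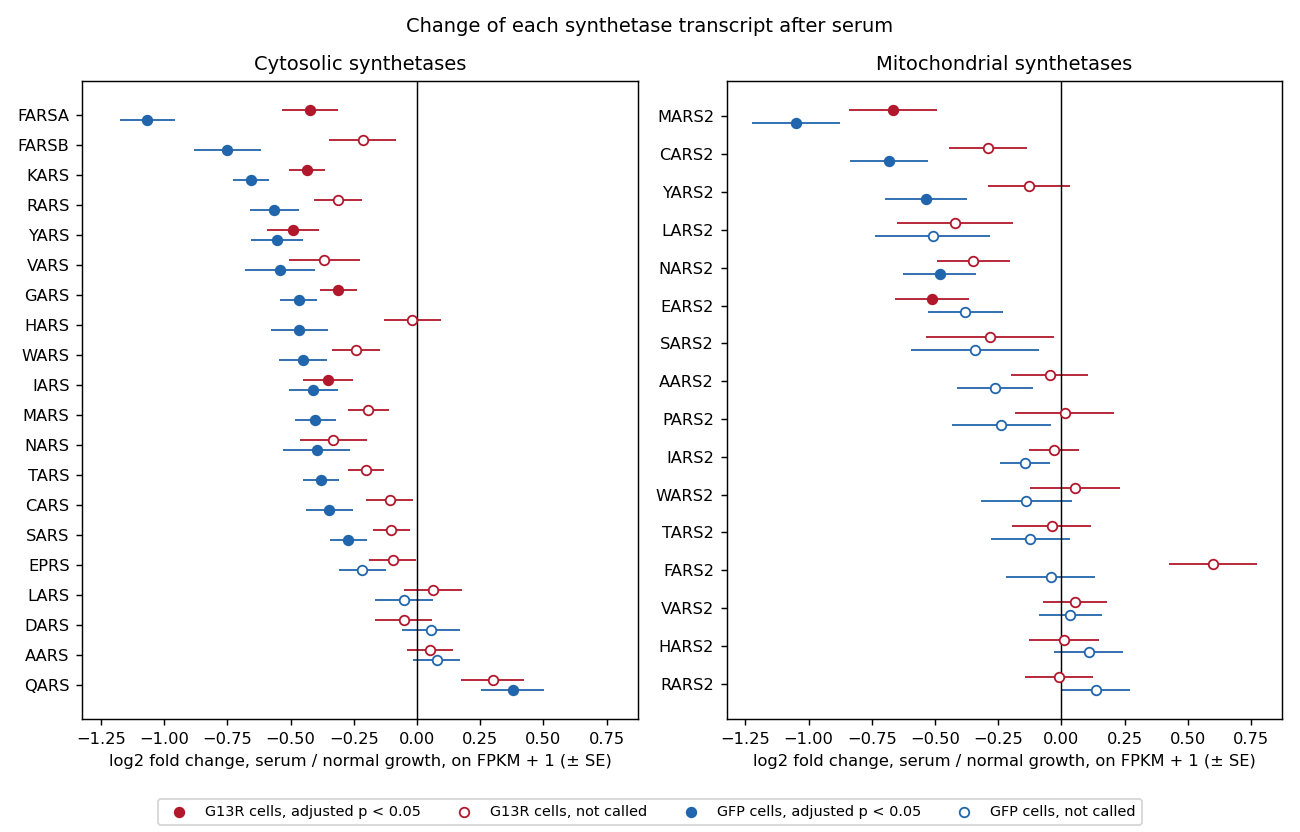
Log2 fold change of each member, serum over normal growth on the log2(FPKM + 1) scale, with its standard error, in G13R cells (red) and GFP cells (blue); filled points have an adjusted p under 0.05. In GFP cells 15 cytosolic points are called below 0 and QARS alone above it, and in G13R cells 5 cytosolic and 2 mitochondrial points are called, all below 0.

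The phenylalanine enzyme of the cytosol is a tetramer of alpha subunits, from FARSA, and beta subunits, from FARSB. FARSA (hg19 chromosome 19, 13033293 to 13044851) measured 41.3 and 36.2 FPKM in G13R cells with serum and 49.0 and 55.5 in normal growth. In GFP cells it measured 28.9 and 28.3 FPKM with serum and 57.2 and 65.0 in normal growth. Serum libraries were lower in both lines with no overlap. FARSA fell by 0.42 on the log2 scale in G13R cells (SE 0.11, adjusted p = 0.0331). Its log2 fold change in GFP cells was -1.07 (SE 0.11, adjusted p = 0.000167). MARS2 had -1.05 (SE 0.17) there, so no greatest fall of the 36 members is named. The call in G13R cells was lost without any 1 of the 4 G13R libraries.

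FARSB (hg19 chromosome 2, 223435255 to 223521056) measured 30.6 and 32.5 FPKM in G13R cells with serum and 35.1 and 38.5 in normal growth. GFP cells had 30.1 and 22.6 FPKM with serum and 46.2 and 43.0 in normal growth. The groups did not overlap in either line. Its log2 fold change was -0.22 in G13R cells, which was not called, and -0.75 ± 0.13 (SE) in GFP cells (adjusted p = 0.00258). The mitochondrial phenylalanine enzyme, the single-chain FARS2 (hg19 chromosome 6, 5261584 to 5771816), had 5.10 and 4.88 FPKM in G13R cells with serum against 2.53 and 3.43 in normal growth. In GFP cells its values were 4.95 and 4.435 FPKM with serum and 4.68 and 5.04 in normal growth. The G13R libraries in normal growth were the lowest of the 8. The serum change of FARS2 in G13R cells, 0.60 ± 0.18 (SE), missed the threshold (adjusted p = 0.0504).

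KARS charges tRNA with lysine for both compartments and lies at hg19 chromosome 16, 75661622 to 75682541. Its level was 131 and 127.5 FPKM in G13R cells with serum and 174 and 176 in normal growth, and 132 and 126 in GFP cells with serum against 204 and 203 in normal growth. All 4 serum libraries lay within 125.7 to 131.6 FPKM, below every normal-growth library. The log2 fold change was -0.43 ± 0.07 (SE) in G13R cells (adjusted p = 0.00478) and -0.66 ± 0.07 in GFP cells (adjusted p = 0.000222). The call in G13R cells was lost without G13R serum replicate 2 (adjusted p = 0.0561).

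GARS, the glycine enzyme of both compartments (hg19 chromosome 7, 30634297 to 30673649), behaved alike in its values. It had 153 and 154 FPKM in G13R cells with serum and 188 and 193 in normal growth, and 152 and 147 in GFP cells with serum against 214 and 200.5 in normal growth. Serum libraries were lower without overlap, and GARS fell in both lines, by 0.31 (SE 0.07, adjusted p = 0.0216) in G13R cells and 0.47 (SE 0.07, adjusted p = 0.00135) in GFP cells. The G13R call was lost without any 1 of the 4 G13R libraries.

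YARS, the tyrosine enzyme (hg19 chromosome 1, 33240840 to 33283754), had a fall in G13R cells close in size to those of KARS and FARSA. It measured 108 and 99.5 FPKM with serum and 145 and 147 in normal growth in those cells, and 109.9 and 91.1 with serum against 156 and 139 in normal growth in GFP cells. Serum libraries were lower without overlap in each line. Its log2 fold change was -0.49 ± 0.10 (SE) in G13R cells (adjusted p = 0.0144) and -0.55 ± 0.10 in GFP cells (adjusted p = 0.00337). The G13R call was lost without any 1 of the G13R libraries.

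IARS, the isoleucine enzyme (hg19 chromosome 9, 94972489 to 95056038), was the other cytosolic member called in both lines. It had 52.5 and 55.0 FPKM in G13R cells with serum and 66.4 and 71.25 in normal growth, and 58.4 and 49.75 in GFP cells with serum against 73.1 and 70.7 in normal growth. The groups did not overlap in either line. IARS fell by 0.35 in G13R cells (SE 0.10, adjusted p = 0.0426) and by 0.41 in GFP cells (adjusted p = 0.0112). The G13R call was lost without any 1 of the G13R or GFP normal libraries, and the GFP call without GFP normal replicate 1 or GFP serum replicate 2.

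RARS, the arginine enzyme (hg19 chromosome 5, 167913450 to 167946304), measured 47.65 and 49.0 FPKM in G13R cells with serum and 59.1 and 61.5 in normal growth. GFP cells had 45.9 and 42.3 FPKM with serum and 70.2 and 61.4 in normal growth. Each serum library was below the normal-growth libraries of its line. RARS fell by 0.56 in GFP cells (SE 0.10, adjusted p = 0.00215), while its G13R value of -0.31 was not called (adjusted p = 0.0586) and was called without either GFP serum library. The other cytosolic members that fell in GFP cells were VARS (valine), HARS, WARS (tryptophan), MARS (methionine), NARS (asparagine), TARS, CARS (cysteine) and SARS, with log2 fold changes from -0.54 for VARS to -0.27 for SARS. The calls of WARS, MARS and TARS held without any 1 library. Those of VARS, CARS and SARS were lost without either GFP normal library or GFP serum replicate 2, and that of NARS held only when GFP serum replicate 1 was the library left out. NARS measured 89.6 and 66.05 FPKM and VARS 63.9 and 44.6 FPKM in the GFP serum libraries. Without GFP serum replicate 2 the log2 fold change was -0.18 for NARS, against -0.40 with it, and -0.29 for VARS.

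QARS was the exception to the fall. The gene, at hg19 chromosome 3, 49133365 to 49142553, encodes the enzyme that charges glutamine in the cytosol. It measured 112 and 126 FPKM in G13R cells with serum and 89.4 and 103 in normal growth, and 140.1 and 177 in GFP cells with serum against 114 and 128 in normal growth. Serum libraries were higher in each line without overlap. QARS rose by 0.38 on the log2 scale in GFP cells (SE 0.12, adjusted p = 0.0423), and its value in G13R cells, 0.30 ± 0.12 (SE), was not called (adjusted p = 0.141). The GFP call was lost without either GFP normal library, either G13R serum library or GFP serum replicate 2, and without the last the log2 fold change was 0.21.

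EPRS (hg19 chromosome 1, 220141943 to 220220000) was not called in either line. It had 54.6 and 58.7 FPKM in G13R cells with serum against 60.1 and 60.9 in normal growth, and 65.1 and 58.3 in GFP cells with serum against 74.7 and 68.9 in normal growth. Again no serum library reached the normal-growth range of its line, but the log2 fold changes were small, -0.10 in G13R cells and -0.22 ± 0.09 (SE) in GFP cells (adjusted p = 0.104). LARS (leucine), DARS (aspartate) and AARS (alanine) were also not called, with log2 fold changes in GFP cells of -0.05, 0.05 and 0.08.

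**Figure D3:**
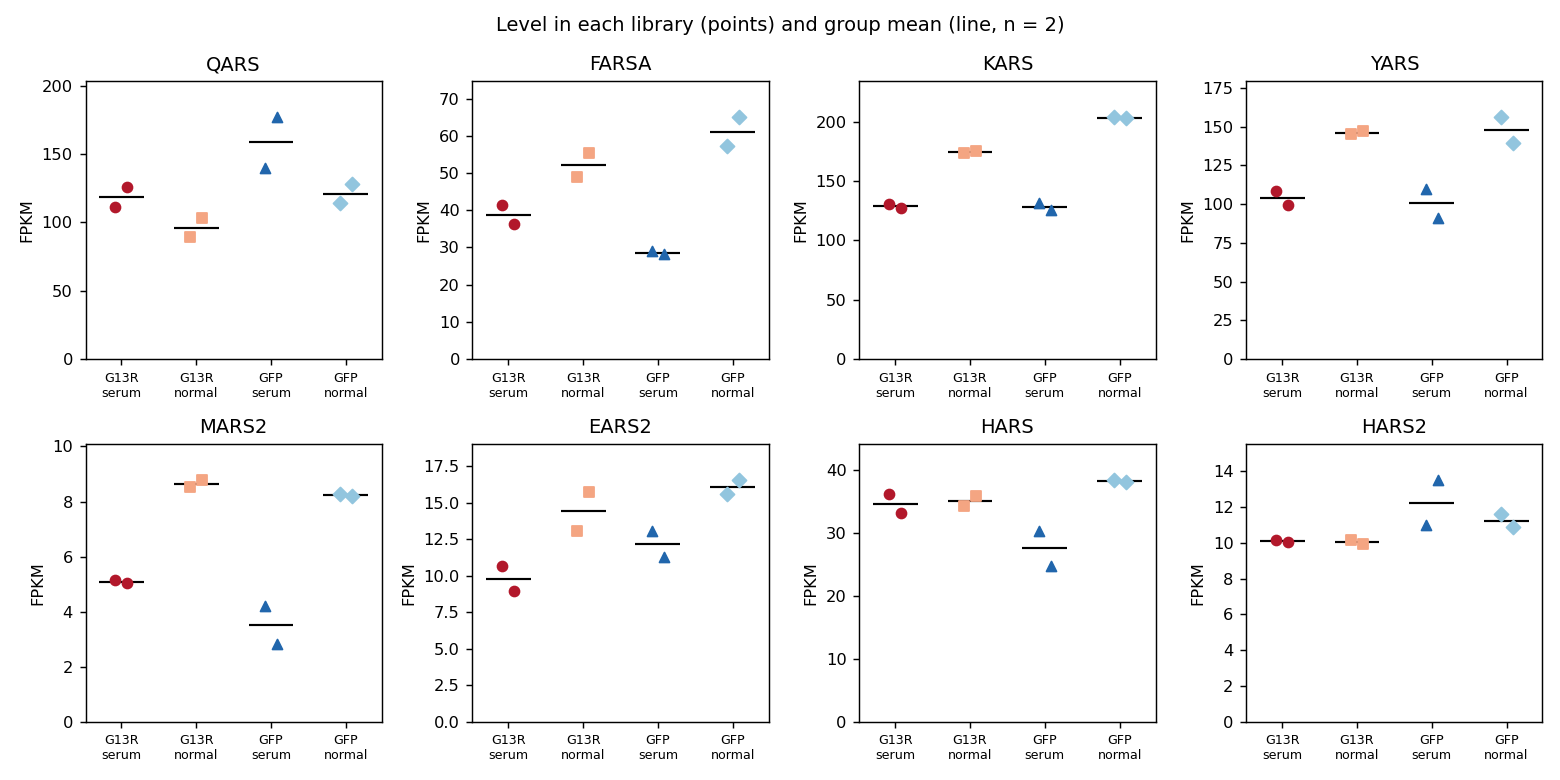
FPKM of 8 members in each library (points) with the group mean (line, n = 2), for G13R cells with serum, G13R cells in normal growth, GFP cells with serum and GFP cells in normal growth. Serum libraries lie above normal growth for QARS and below it for FARSA, KARS, YARS and MARS2 in both lines, while HARS is lower with serum in GFP cells and overlaps in G13R cells.

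In animal cells a set of cytosolic synthetases is held in the multisynthetase complex by scaffold proteins. Of its 8 listed enzyme genes (DARS, EPRS, IARS, KARS, LARS, MARS, QARS and RARS), 2 fell after serum in G13R cells, with a median log2 fold change of -0.14. In GFP cells 4 fell and QARS rose, with a median of -0.31. Of the 12 other cytosolic genes, 3 fell in G13R cells (median -0.23) and 11 fell in GFP cells (median -0.46). The complex thus holds the single gene that rose and 3 of the 4 cytosolic genes not called in GFP cells.

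The scaffold genes AIMP1, AIMP2 and EEF1E1 all fell in GFP cells, and EEF1E1 alone fell in G13R cells. EEF1E1 measured 35.8 and 34.9 FPKM in G13R cells with serum and 47.4 and 52.1 in normal growth, and 32.3 and 29.5 in GFP cells with serum against 58.1 and 56.1 in normal growth. The serum libraries were lower without overlap. Its log2 fold change was -0.48 in G13R cells and -0.87 ± 0.10 (SE) in GFP cells (adjusted p = 0.00025), beyond that of 19 of the 20 cytosolic synthetases. The G13R call of EEF1E1 was lost without G13R normal replicate 2 or either G13R serum library. The GFP call of AIMP1 held only when GFP normal replicate 2 was the library left out. Its log2 fold change was -0.32, and -0.19 without GFP normal replicate 1. The GFP call of AIMP2 was lost without GFP normal replicate 2 or GFP serum replicate 2.

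Among the mitochondrial members, MARS2 alone was called in both lines. The gene (hg19 chromosome 2, 198570087 to 198573113) encodes the methionine enzyme, whose charged tRNA serves both initiation and elongation in mitochondria. It measured 5.135 and 5.03 FPKM in G13R cells with serum and 8.51 and 8.78 in normal growth, and 4.22 and 2.82 in GFP cells with serum against 8.26 and 8.20 in normal growth. Every serum library was below every normal-growth library. MARS2 fell in G13R cells by 0.67 on the log2 scale (SE 0.17, adjusted p = 0.0347) and in GFP cells had a log2 fold change of -1.05 ± 0.17 (SE, adjusted p = 0.00193). The G13R call was lost without any 1 of the G13R or GFP normal libraries.

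EARS2, which charges both the glutamate and the glutamine tRNAs of mitochondria (hg19 chromosome 16, 23533335 to 23569052), fell in G13R cells. It had 10.7 and 8.93 FPKM with serum there against 13.1 and 15.7 in normal growth, and 13.05 and 11.3 in GFP cells with serum against 15.6 and 16.6 in normal growth. Serum libraries were lower without overlap in each line. The log2 fold change was -0.51 ± 0.15 (SE) in G13R cells (adjusted p = 0.0469) and -0.38 ± 0.15 in GFP cells, which was not called (adjusted p = 0.0746). The G13R call was lost without any 1 of the G13R or GFP normal libraries, and the value was -0.39 without G13R normal replicate 2 or G13R serum replicate 2.

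CARS2, the cysteine enzyme (hg19 chromosome 13, 111293759 to 111365950), had 19.1 and 13.4 FPKM in G13R cells with serum and 18.6 and 21.1 in normal growth, which overlapped. In GFP cells it had 15.0 in both serum libraries, against 24.6 and 24.7 FPKM in normal growth. Its spread between GFP replicates was thus small beside the difference, and CARS2 fell by 0.68 (SE 0.15, adjusted p = 0.00851). YARS2, for tyrosine (hg19 chromosome 12, 32880424 to 32908836), had 15.3 and 22.3 FPKM in G13R cells with serum and 19.8 and 20.8 in normal growth. In GFP cells it had 14.1 and 16.2 FPKM with serum and 22.9 and 21.8 in normal growth. The groups overlapped in G13R cells and not in GFP cells, where YARS2 fell by 0.54 (SE 0.16, adjusted p = 0.0306); that call was lost without either GFP normal library or GFP serum replicate 1.

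NARS2, for asparagine (hg19 chromosome 11, 78147007 to 78285919), had 12.8 and 14.95 FPKM in G13R cells with serum and 16.3 and 19.7 in normal growth, and 15.5 and 12.96 in GFP cells with serum against 21.1 and 19.3 in normal growth. The serum libraries were lower without overlap. NARS2 fell by 0.48 in GFP cells (SE 0.14, adjusted p = 0.0297), a call lost without either GFP normal library or GFP serum replicate 2, and its value in G13R cells, -0.35, was not called. YARS2 shares 18063 bases of its hg19 span with DNM1L, KARS 858 bases with TERF2IP, YARS 1387 with S100PBP, CARS2 868 with ING1, EARS2 661 with UBFD1 and HARS 952 with WDR55. Whether counting used the strand is not stated in the labels, so reads from such overlaps could be assigned to either gene. SARS2 had 61.3% of its 50-base windows in common with the GENCODE gene AC011455.2, and its value is uncertain for that reason.

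For 13 amino acids the list has one cytosolic and one mitochondrial gene. The cytosolic gene was the more abundant in every pair, with a ratio of mean FPKM from 1.75 for isoleucine to 21.5 for methionine and a median of 5.34. In G13R cells both genes fell in 0 pairs, the cytosolic gene alone was called lower in 2 (isoleucine and tyrosine), the mitochondrial gene alone in 1 (methionine) and neither in 10. In GFP cells both fell in 4 pairs (asparagine, cysteine, methionine and tyrosine), the cytosolic gene alone was called lower in 7, the mitochondrial alone in 0, and neither in 2 (alanine and leucine). The cytosolic change was the more negative in 7 of the 13 pairs in each line. The log2(FPKM + 1) scale understates changes of the less abundant mitochondrial genes. This count therefore does not show whether the pairs lean to either compartment in size.

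**Figure D4:**
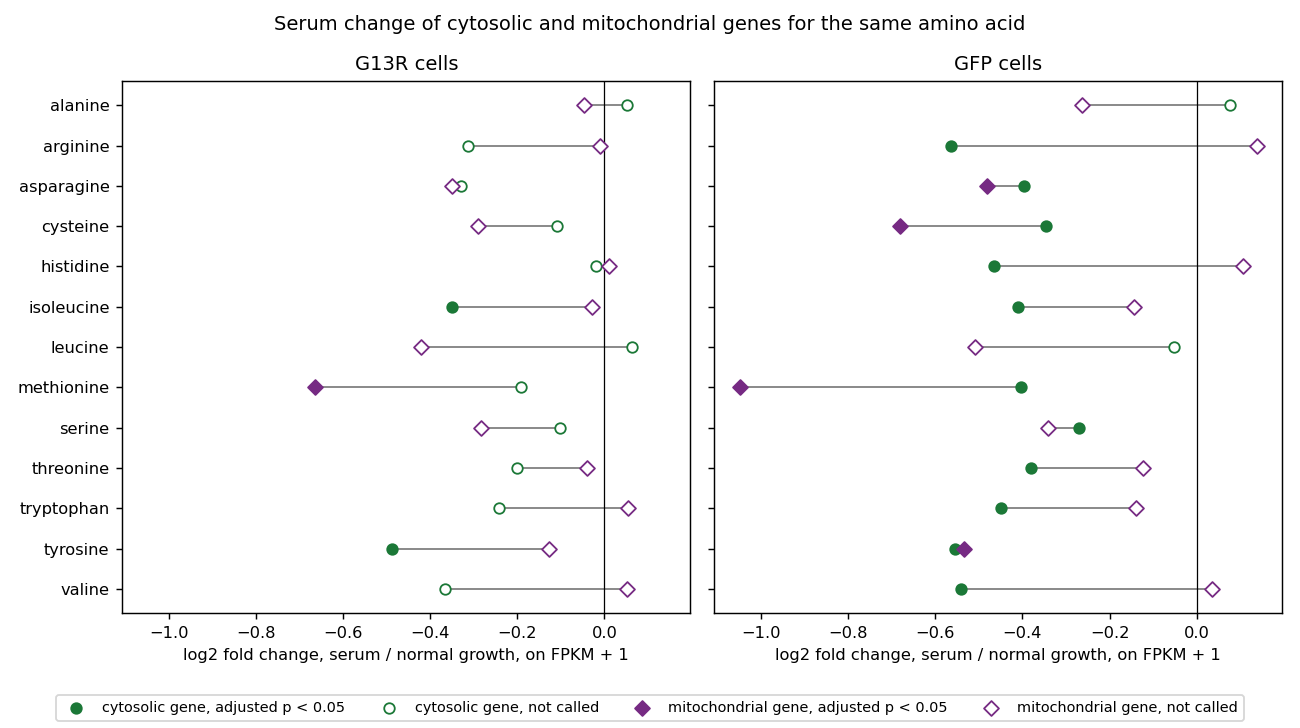
Log2 fold change, serum over normal growth on the log2(FPKM + 1) scale, of the cytosolic (circles) and the mitochondrial gene (diamonds) for each of 13 amino acids, joined by a line, in G13R cells (left) and GFP cells (right); filled symbols have an adjusted p under 0.05. Both symbols are filled in 0 pairs in G13R cells and in 4 in GFP cells, and for methionine the mitochondrial gene lies further below 0 in both panels.

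HARS and HARS2, the cytosolic and mitochondrial histidine enzymes, lie head to head on chromosome 5. In GRCh38.p14 their RefSeq starts are 85 bases apart and their promoter windows share 184 bases. The shared stretch is given on the plus strand, with the bases from the HARS start to the HARS2 start in capitals; HARS is read to the left and HARS2 to the right.
HARS and HARS2 (chr5:140691321-140691504, plus strand): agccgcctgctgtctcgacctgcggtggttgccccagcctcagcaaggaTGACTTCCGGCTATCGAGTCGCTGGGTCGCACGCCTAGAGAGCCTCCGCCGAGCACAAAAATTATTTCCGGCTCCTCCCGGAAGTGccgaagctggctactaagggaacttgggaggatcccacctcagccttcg

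HARS (hg19 140052758 to 140071609) measured 36.1 and 33.1 FPKM in G13R cells with serum and 34.2 and 35.9 in normal growth, and 30.3 and 24.8 in GFP cells with serum against 38.4 and 38.0 in normal growth. HARS2 (hg19 140071011 to 140078889) measured 10.2 and 10.03 FPKM in G13R cells with serum and 10.1 and 9.91 in normal growth, and 11.0 and 13.5 in GFP cells with serum against 11.6 and 10.9 in normal growth. The HARS libraries separated in GFP cells only, and those of HARS2 overlapped in both lines. HARS fell by 0.46 in GFP cells (SE 0.11, adjusted p = 0.0123), a call lost without either GFP normal library or GFP serum replicate 2. HARS2 was not called there, at 0.11 ± 0.14 (SE, adjusted p = 0.587), and the log2 fold changes in G13R cells were -0.02 for HARS and 0.01 for HARS2. The hg19 spans overlap by 599 bases, and 0% of the 50-base windows of either gene occurred in the other.

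The cytosolic members can be set side by side by the C/EBP-ATF letters printed above, as a description with no test. Of the 7 with the letters, 2 fell in G13R cells (median log2 fold change -0.20) and 6 fell in GFP cells (median -0.40), AARS being the one not called in GFP cells. Of the 9 whose window lacked them, 2 fell in G13R cells (median -0.21) and 7 fell and 1 rose in GFP cells (median -0.46). Of the 4 with no window, 1 fell in G13R cells (median -0.21) and 2 fell in GFP cells (median -0.30).

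ATF4 itself was an abundant transcript. It measured 451 and 461 FPKM in G13R cells with serum and 503 and 530.2 in normal growth, and 437 and 441 in GFP cells with serum against 554 and 556 in normal growth. In neither line did the serum and normal-growth values overlap. Its log2 fold change in G13R cells, -0.18, was not called (adjusted p = 0.0969), and ATF4 fell by 0.34 in GFP cells (adjusted p = 0.00397). Of the 27 listed genes of ATF4 and the amino acid stress response, 4 fell and 1, NUPR1, rose in G13R cells (median -0.18). Over all genes 4.62% were called lower and 8.26% higher there. In GFP cells 13 fell and 3 rose (median -0.43), beside 15.7% lower and 14.9% higher of all genes. The NUPR1 call was lost without any 1 of the G13R libraries. The falls in GFP cells were fewer without either GFP normal library or GFP serum replicate 2. The falls in G13R cells were fewer without any 1 of the G13R or GFP normal libraries. They were more numerous without either GFP serum library. The number of all genes called lower moved the same way in each of these fits. The list did not move one way in GFP cells: SLC7A5, a transporter of large neutral amino acids, had a log2 fold change of -0.98, while ATF3 and DDIT4, stress-inducible genes, had 2.21 and 1.44. ASNS, the asparagine synthetase, at 0.03, DDIT3, at -0.28 (adjusted p = 0.0912), and TRIB3, at -0.45 (adjusted p = 0.0548), were not called in GFP cells. DDIT3 shares 982 bases of its span with MARS.

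Genes that process, modify or export tRNA also fell in GFP cells, 11 of the 16 listed genes that were tested, with a median log2 fold change of -0.59. Over all genes 15.7% were called lower in GFP cells and 4.62% in G13R cells. The greatest falls were those of NSUN2, a tRNA cytosine methyltransferase (-1.01), PUS1, a pseudouridine synthase (-1.004), and DKC1, the catalytic subunit of the box H/ACA pseudouridylation complex (-0.997). PUS1 measured 33.4 and 19.1 FPKM in the GFP serum libraries against 50.3 and 53.2 in normal growth, and its log2 fold change was -0.62 without GFP serum replicate 2. The count of 11 was smaller without either GFP normal library or GFP serum replicate 2, when fewer of all genes were called lower too. In G13R cells DKC1 alone was called (-0.50), a call lost without any 1 of the G13R or GFP normal libraries, and the median was -0.29. C22orf28 of that list had no row under this symbol.

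**Figure D5:**
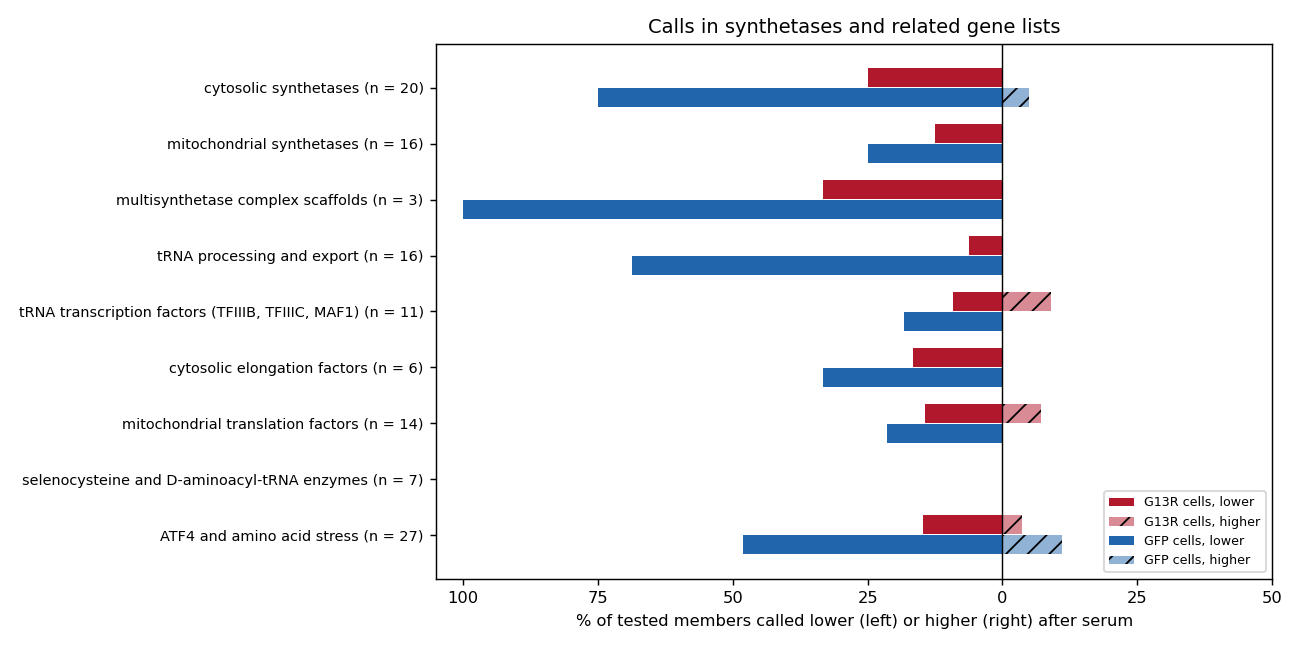
Percent of the tested members of each synthetase class and related list that were called lower (left of 0) or higher (right of 0, hatched) after serum at an adjusted p under 0.05, in G13R cells (red) and GFP cells (blue), with the number tested beside each name. In GFP cells the leftward bars stand for 15 of 20 cytosolic synthetases, 11 of 16 tRNA processing and export genes and 13 of 27 ATF4 and amino acid stress genes, while over all genes 15.7% were called lower.

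The actin mutant was compared with GFP at each serum state; these comparisons reuse the libraries of the serum comparisons. In normal growth 0 of 36 members were called by limma, while 0.0462% of all genes were called. At an unadjusted p under 0.05, 3 cytosolic and 1 mitochondrial member were lower and 0 higher. No share of all genes is given at that unadjusted threshold, so these counts are not read as an excess. The median log2 fold change was -0.11 for cytosolic and -0.15 for mitochondrial members, against -0.07 over all genes tested. The smallest p-values belonged to KARS (-0.22 ± 0.07 SE, adjusted p = 0.212) and QARS (-0.33 ± 0.12, adjusted p = 0.255) in the cytosol. In mitochondria they belonged to FARS2 (-0.57 ± 0.18 SE, adjusted p = 0.191) and WARS2 (-0.39 ± 0.18, adjusted p = 0.338), the tryptophan enzyme. None of these differences passed the threshold.

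With serum, 0 of 36 members were called by limma between G13R and GFP cells, and 0.823% of all genes were. The median log2 fold change was 0.06 for cytosolic and -0.01 for mitochondrial members, against -0.03 over all genes tested. At an unadjusted p under 0.05, 4 cytosolic members were higher and 2 lower in G13R cells, and 1 mitochondrial member was higher. These counts also stand without a share of all genes at that threshold and are not read as an excess. FARSA was 0.42 ± 0.11 (SE) higher in G13R cells on the log2 scale (adjusted p = 0.0847), its G13R libraries at 41.3 and 36.2 FPKM lying above the GFP libraries at 28.9 and 28.3. QARS had a log2 fold change of -0.41 ± 0.12 (SE, adjusted p = 0.116), with G13R libraries at 112 and 126 FPKM below the GFP libraries at 140.1 and 177. MARS2 had 0.45 ± 0.17 (SE, adjusted p = 0.187) and EARS2 -0.29 ± 0.15 (SE, adjusted p = 0.302). Without GFP serum replicate 1, the lone remaining GFP serum library being assumed to vary like the other groups, 4 cytosolic and 1 mitochondrial member were called, when 12.6% of all genes were.

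The difference between the serum responses, G13R minus GFP, was called for 0 of 36 members by limma, and 0% of all genes were called. At an unadjusted p under 0.05, 3 cytosolic and 1 mitochondrial member had a higher value and 0 a lower one. Here too no share of all genes is given at that threshold, and the counts are not read as an excess. The difference was above 0 for 17 of 20 cytosolic and 13 of 16 mitochondrial members, with medians of 0.17 and 0.12 against 0.04 over all genes tested. Among cytosolic members the smallest p-values were those of FARSA (0.64 ± 0.16 SE, adjusted p = 0.261) and FARSB (0.54 ± 0.19, adjusted p = 0.317). Among mitochondrial members they were those of FARS2 (0.64 ± 0.25, adjusted p = 0.369) and CARS2 (0.39 ± 0.22, adjusted p = 0.504). Without GFP serum replicate 1 the difference was called for FARSB alone, at 0.73 (adjusted p = 0.0303), when 3.77% of all genes were called. The greater number of members called in GFP cells than in G13R cells is therefore not shown to be a difference between the lines.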

How the data were processed

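Poly(A) RNA of 8 libraries in 4 groups was sequenced. The authors deposited 1 table with FPKM values. Per the submitters' processing notes, the tools were TopHat2 2.0.13 and Cufflinks 2.2.1 and the builds hg19 and BDGP5. FPKM keeps no read counts, so the depth per library and the counting error are unknown and no count model was run. Column names gave the libraries (C was taken to be normal growth), and 0 columns remained without one. Gene starts in the table count from 0, since among 159 short olfactory receptor genes 77.4% had a difference of end and start that 3 divides, so 1 was added, giving 1-based hg19 spans. Promoter sequences are from RefSeq, GRCh38.p14.

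The test was limma 3.58.1 (R 4.3.3) on log2(FPKM + 1), with an intensity trend, 1 mean per group and 4 residual degrees of freedom. It covered the 12996 of 22504 genes that reached 1 FPKM in 2 or more libraries. The step was tested on simulated data. Fold changes on this scale understate the change of low genes. Benjamini-Hochberg adjustment ran over all genes tested, and each adjusted p printed is from these limma fits. Alternatives changed the pseudocount, the filter, the scaling, the libraries in the fit, the intensity trend and the replicate block, and left out each library.

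The members and lists were chosen with earlier results of these data known. Members given in full were, per serum comparison, up to 4 called per class with the largest change; EPRS, GARS, KARS, QARS, EARS2, HARS and HARS2; and, where under 2 were called, the 2 of smallest p per class. From each other list, the 3 called genes with the largest change in GFP cells, and ATF4, ASNS, TRIB3 and DDIT3, were given.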

Additional observations from a re-analysis of the deposited data

How the results depend on the processing

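The 27 called member results kept their direction under all 16 alternatives: they gave 331 values that kept the call, 101 that lost it and 0 that turned round, and 10 results lost it under none. In G13R cells the cytosolic serum calls (5) numbered 2 with no filter on low values, 3 with quantile normalization, 8 with only the compared libraries in the fit, 1 without the intensity trend and 0 to 8 with 1 library left out. The mitochondrial calls (2) numbered 0 with no filter, 1 with a replicate block and 0 to 3 with 1 library left out. In GFP cells the cytosolic calls (16) numbered 10 with no filter and 9 to 17 with 1 library left out, and the mitochondrial calls (4) numbered 1 with no filter and 2 to 4 with 1 library left out. Between G13R and GFP cells with serum, the cytosolic calls (0) numbered 1 with the replicate block, which was QARS, and 0 to 4 with 1 library left out; the mitochondrial calls numbered 0 to 1. The cytosolic calls for the difference of responses numbered 0 to 1. Of all genes, 12.9% were called after serum in G13R cells in the main fit, against 2.57% with no filter. That share was 12.1% with quantile normalization, 19.1% with only the compared libraries, 8.24% without the intensity trend and 13.8% with the replicate block. In GFP cells it was 30.7% in the main fit and 10.1% with no filter. Between the lines with serum it was 0.823% in the main fit and 3.1% with the replicate block. With 1 library left out the calls over all genes shifted as well. The causes of the shifts in these counts were not tested.

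Log2 fold changes of some uncalled members crossed 0. With 1 library left out the value ran from -0.1075 to 0.0221 for FARS2, from -0.0311 to 0.246 for HARS2 and from -0.0613 to 0.171 for DARS in GFP cells. In G13R cells it ran from -0.0802 to 0.0425 for HARS, from -0.00494 to 0.0249 for HARS2, from -0.194 to 0.303 for WARS2 and from -0.386 to 0.13 for YARS2. HARS2 in G13R cells gave -0.03585 with median-ratio scaling and -0.0857 with quantile normalization. LARS in GFP cells gave 0.0363 with quantile normalization, and WARS2 in G13R cells gave -0.0528 with quantile normalization.

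Replicate numbers are not said to mark a batch. Within each group, the difference of replicate 1 minus replicate 2 was taken for each of 12996 genes. These differences correlated between groups at 0.0169 to 0.121, so no pairing was taken. With the replicate block the cytosolic calls were 6 in G13R cells, QARS among them as higher, and 16 in GFP cells. With 2 libraries per group and no read counts, small changes of low mitochondrial transcripts are the least certain.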

Other observations

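Serum responses of other translation genes are given beside the shares of all genes called, 4.62% lower and 8.26% higher in G13R cells and 15.7% lower and 14.9% higher in GFP cells. Of 6 cytosolic elongation factor genes, EEF1A2, an isoform of the factor that brings charged tRNA to the ribosome, fell in G13R cells (log2 fold change -0.50), and EEF1A2 (-0.48) and EEF1D (-0.28) fell in GFP cells. The list medians were -0.08 in G13R cells and -0.15 in GFP cells. Of 14 mitochondrial translation factors, MRRF (-0.46), the ribosome recycling factor, and MTIF2 (-0.39), an initiation factor, fell and MTIF3 (0.48) rose in G13R cells. In GFP cells GFM1 (-0.57), an elongation factor, MTIF2 (-0.54) and TRMU (-0.39), a tRNA thiouridylase, fell. The calls of MRRF, MTIF2 and MTIF3 in G13R cells were lost without any 1 of the G13R libraries, and those of GFM1 and TRMU in GFP cells without either GFP normal library or GFP serum replicate 2. Without that last library GFM1 had -0.33. The call of EEF1D was lost without any 1 of the GFP libraries or either G13R serum library. Differences between these lists and the synthetases were not tested.

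Of 11 genes of RNA polymerase III transcription (TFIIIB, TFIIIC and MAF1), BRF2, a TFIIIB subunit that serves U6 and other genes with upstream promoters rather than most tRNA genes, fell in both lines, with a log2 fold change of -0.61 in G13R cells and -0.95 in GFP cells. MAF1, a repressor of RNA polymerase III, rose in G13R cells (0.40), and GTF3C5, a TFIIIC subunit, fell in GFP cells (-0.27). The G13R calls of BRF2 and MAF1 were lost without any 1 of the G13R libraries, and the call of GTF3C5 without either GFP normal library, either G13R serum library or GFP serum replicate 1. Of 7 genes for selenocysteine and D-aminoacyl-tRNA enzymes, 0 were called by limma in either line, with medians of -0.14 in G13R cells and -0.08 in GFP cells. After serum, ATF3 measured 33.9 and 39.6 FPKM in G13R cells and 68.7 and 138 in GFP cells, a log2 fold change of -1.39 (adjusted p = 0.0487 by limma), and CEBPB was higher in G13R cells (0.45, adjusted p = 0.0487). Both calls were lost without any 1 library other than GFP serum replicate 1. With replicate 2 of that group left out, ATF3 had -0.89 (adjusted p = 0.142), when 9 genes of all tested were called.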
